A study of Mus musculus with 24 samples.

Results

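Cholangiocyte organoids (Cho-Orgs) are hollow structures lined by 1 layer of bile duct epithelium that are grown from single EpCAM+ liver cells in Matrigel. The members described here are the 3 libraries of Cho-Orgs at passage 0 (P0, group Cho-org-P0-M) and the 3 libraries at passage 5 (P5, group Cho-org-P5-M), out of 24 libraries in the series. They were compared across all genes to describe what is lost, gained and switched on during the first culture phase. Both groups came from wild-type adult BALB/c mice 6 to 8 weeks of age, and carried no transgene or deletion. The founder cells were taken with magnetic beads against EpCAM (CD326). For the medium of cholangiocyte organoids the sources state no difference between passages. It holds B27, N2, N-acetylcysteine, nicotinamide, gastrin, EGF, FGF10, HGF, R-spondin1, Noggin and Wnt3a. It also holds forskolin, which raises cyclic AMP, A83-01, an inhibitor of TGF-beta receptors, and Y-27632, an inhibitor of ROCK kinases. Fresh bile duct cells were not among the libraries analysed here, so P0 is already a cultured state. The labels number the libraries of each group M1, M2 and M3, which were separate cultures. Whether each number marks 1 mouse is not settled by the sources, so the p-values may measure only the spread between cultures.

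The bile ducts are lined by cholangiocytes, which carry simple epithelial keratins, move water, chloride and bicarbonate into bile, and bear a primary cilium that senses flow. Hepatocytes arise from the same fetal progenitor and make most plasma proteins, clotting factors, bile acids and the enzymes of drug, nitrogen and sugar metabolism. The medium for such organoids supplies Wnt, EGF, FGF and HGF signals, which are known to keep duct cells dividing, and blocks the TGF-beta signal that is known to restrain them.

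Poly(A) RNA of each culture was sequenced as a bulk library. Levels are in FPKM, a fragment count corrected for gene length and library size. The table lists 25876 genes. Steps between low values put each library at roughly 37860000 to 39930000 fragments. In the 6 libraries 11026 to 11180 genes reached 1 FPKM, and the sum over the top 10 genes was 13.5% to 16.8% of the total. A gene was tested when it had at least 1 FPKM in at least 3 of the 6 libraries, which held for 11339 genes. Differences are given as P5 minus P0 on the log2(FPKM + 1) scale, which understates the change of genes near 0, and were tested with limma with Benjamini-Hochberg adjustment over the 11339 genes. A gene is called higher or lower where the adjusted p was under 0.05. A member that reached the level for testing through 1 passage alone had its direction fixed by that, so counts and medians over the members tested describe those members only. For several lists the values over every member above 0 FPKM in any library are given too. Per-library values are given in the order M1, M2 and M3. The P0 libraries spread more than the P5 libraries. The rank correlation over the genes tested was 0.9785 to 0.9888 among the P0 libraries, 0.9955 to 0.9966 among the P5 libraries and 0.9163 to 0.9281 between a P0 and a P5 library. The median standard deviation of a gene on the log2 scale was 0.114 at P0 and 0.0648 at P5.

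Markers of the labelled cell type were present. Epcam, the surface protein used for the selection, had 432, 432 and 488 FPKM at P0 and 478, 496 and 495 FPKM at P5. Krt19, a keratin of bile duct cells, had 997, 996 and 1141 FPKM at P0 and 1319.5, 1319.9 and 1379 FPKM at P5. Both were among the abundant transcripts of every library. Hepatocyte markers, among them several cytochrome P450 genes, were high at P0 as well, as given below. Cyp2e1, another enzyme of that family, had 0.0142, 0 and 0 FPKM at P0 and 0 in the 3 P5 libraries. Of 14 Kupffer cell and macrophage genes, 2 reached the level for testing, and Clec4f, Timd4 and Vsig4 were at 0 in all 6 libraries. Of 12 sinusoidal endothelial genes 1 reached it, of 14 stellate and mesenchymal genes 2, of 15 blood lineage genes 3 and of 6 mesothelial genes 1. The members of these lists that did reach it are described with the genes switched on and off. The exceptions are the blood lineage genes other than Cd3e, of which 1 was called lower and 1 was not called.

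From P0 to P5, 5696 of the 11339 genes were called (50.2%). Of these, 3414 were higher at P5 (30.1% of the genes tested) and 2282 were lower (20.1%). The counts given below for each list stand beside these shares. The split depends on the scaling. With median-ratio size factors 2763 of 5608 calls were higher, 49.3% of the calls against 59.9% without them. The 3 P0 and 3 P5 values did not overlap for 6995 genes (61.7%), so a lack of overlap in a gene named below was common among all genes tested. The median difference over all genes was 0.06. A difference of at least 1 in log2 was called for 882 genes (7.78%), of which 374 were higher and 508 lower. The falls reached further than the rises. A fall of at least 2 was called for 170 genes and a rise of that size for 54, and beyond 4 the numbers were 40 and 2. In these bulk cultures, fewer cells of a type and less RNA per cell cannot be told apart.

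**Figure D1:**
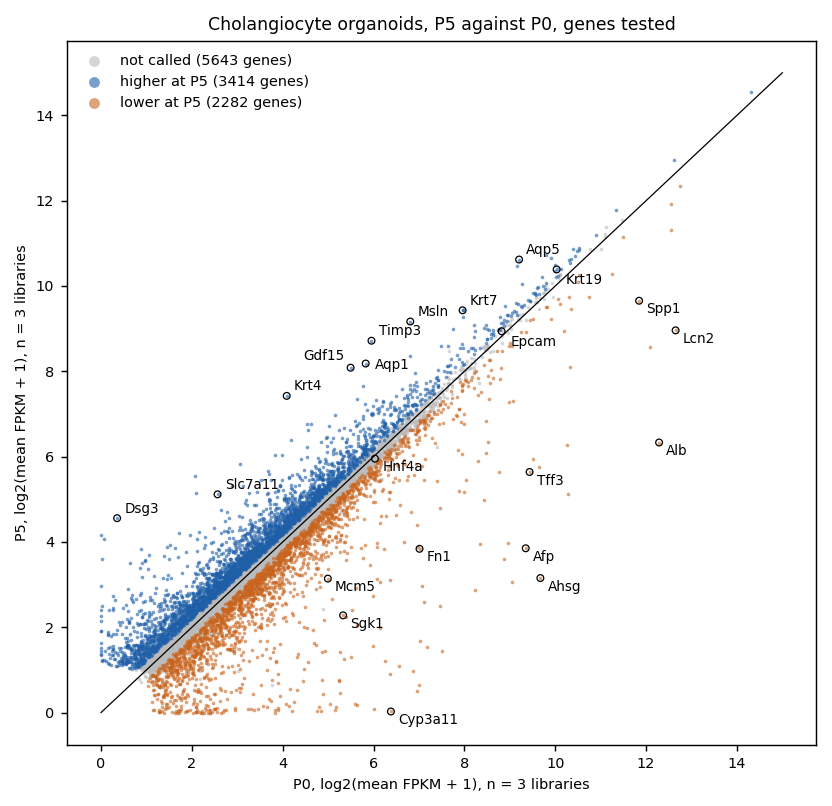
Mean level at P0 (horizontal axis) and at P5 (vertical axis) of each of the 11339 genes tested, as log2 of the mean FPKM of 3 libraries plus 1. Blue points were called higher at P5 (3414 genes), orange points lower (2282) and grey points were not called. The line marks equal levels. The orange points far below the line include Alb, Ahsg, Afp and Cyp3a11, and the blue points farthest above it include Dsg3 and Krt4.

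The list with the lowest median was that of plasma proteins made by hepatocytes. Of 21 such genes tested, 21 were lower at P5, where 20.1% of all genes tested were lower, with a median difference of -3.76 against 0.06 over all genes, and together they went from 3.03% ± 0.166 of the summed FPKM (SD, n = 3) to 0.150% ± 0.0136. Of the 21, 10 were under 1 FPKM in every P5 library and so were tested through P0 alone. Alb, which encodes serum albumin, had 5202, 4526 and 5254 FPKM at P0 and 66.5, 91.3 and 80.7 FPKM at P5 (log2 difference -5.96, standard error 0.12, adjusted p = 2.46e-07). Afp, the fetal counterpart of albumin, had 674, 659.7 and 621 FPKM at P0 and 11.8, 14.5 and 14 FPKM at P5 (log2 difference -5.50, standard error 0.08, adjusted p = 9.05e-08). Ahsg, the secreted inhibitor of calcification fetuin-A, had 847, 830.3 and 768 FPKM at P0 and 6.63, 10 and 7.03 FPKM at P5 (log2 difference -6.54, standard error 0.14, adjusted p = 2.74e-07), the largest fall among the named genes called. For all 3 genes the P0 libraries lay within a narrow band and every P5 library lay far below it. Trf, which encodes the iron carrier transferrin, was the second most abundant of them and fell less steeply, with 3174, 5607 and 4247 FPKM at P0 and 347, 416 and 369 FPKM at P5 (log2 difference -3.49, standard error 0.19, adjusted p = 1.53e-05). Igfbp1, a hepatic binding protein of insulin-like growth factors that is in none of the lists, had 166, 182 and 194 FPKM at P0 and 1.90, 1.90 and 1.43 FPKM at P5 (log2 difference -6.05, standard error 0.09, adjusted p = 9.05e-08).

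Clotting factors and acute phase proteins followed the plasma proteins. Of 16 coagulation genes tested 16 were lower (median -3.46), beside 20.1% of all genes, and 10 of the 16 were tested through P0 alone. Over all 21 coagulation genes above 0 FPKM 20 were lower, with a median of -2.24. Of 12 acute phase genes tested 12 were lower (median -3.68, share of the summed FPKM 1.82% ± 0.53 at P0 and 0.156% at P5), and 14 of 16 above 0 FPKM. Most of that share was the 1 gene Lcn2 at both passages, which is described below and is not made by hepatocytes alone. The fibrinogen chains Fga, Fgb and Fgg fell by 5.04, 5.17 and 5.30 on the log2 scale, and Fgb had 1289.7, 1377 and 1052 FPKM at P0 and 24.0, 40.1 and 38.3 FPKM at P5. Plg, the precursor of the clot-dissolving enzyme plasmin, had 89.9, 37.6 and 61.3 FPKM at P0 and 0.0865, 0.0952 and 0.0189 FPKM at P5 (log2 difference -5.82, standard error 0.27, adjusted p = 8.4e-06). Hp, which encodes the haemoglobin scavenger haptoglobin, had 568, 549 and 477 FPKM at P0 and 6.99, 7.14 and 7.98 FPKM at P5 (log2 difference -5.99, standard error 0.08, adjusted p = 9.05e-08). All 3 P5 values of these genes were below all P0 values. F9, Cpb2 and Hrg were listed at 0 in the 3 P5 libraries, and F9 had 2.39, 2.00 and 2.17 FPKM at P0.

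Lcn2 had the largest loss in mean FPKM of any gene. It encodes lipocalin-2, an iron-sequestering defence protein that is also made by stressed epithelium, and had 4687, 8722 and 5869.6 FPKM at P0 and 476, 528 and 486 FPKM at P5 (log2 difference -3.64, standard error 0.20, adjusted p = 1.66e-05). Replicate M2 was the highest at P0 and the P5 libraries lay close together. Hamp, the iron hormone hepcidin, had 83.0, 230.5 and 96.0 FPKM at P0 and 5.40, 4.38 and 5.26 FPKM at P5 (log2 difference -4.37, standard error 0.35, adjusted p = 8.43e-05), again highest in M2 at P0. Of 15 complement genes tested 14 were lower (median -1.98), and of 22 above 0 FPKM 18 were lower and 2 higher (median -1.17). C3, the central component, had 1107, 1378 and 1179.6 FPKM at P0 and 67.7, 89.2 and 73.5 FPKM at P5 (log2 difference -3.98, standard error 0.12, adjusted p = 1.33e-06). The exception among those tested was Cd55, which protects cells from complement and rose from 3.66, 7.23 and 6.64 FPKM to 24.1, 25.8 and 25.6 FPKM (log2 difference 1.98, standard error 0.20, adjusted p = 0.000245). Apolipoprotein genes were lower in 8 of 8 cases tested (median -2.46), 4 of them tested through P0 alone, with Apoe at 736, 1000.1 and 676 FPKM at P0 and 49.2, 57.3 and 52.5 FPKM at P5 and Apob, the carrier of very low density lipoproteins, at 35.4, 18.6 and 30.4 FPKM at P0 and 0.686, 0.686 and 0.757 FPKM at P5.

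Metabolic genes of hepatocytes fell with more variation among members. Of 11 cytochrome P450 genes tested, 8 were lower and 2 higher (median -3.29), and 5 of the 11 were tested through P0 alone. Over the 17 above 0 FPKM, 10 were lower and 2 higher, with a median of -0.72. Cyp3a11, a main drug-oxidising enzyme, had 148, 31.3 and 68.1 FPKM at P0 and 0.0516, 0 and 0 FPKM at P5 (log2 difference -6.09, standard error 0.47, adjusted p = 7.86e-05). Cyp2c29, of the same superfamily, had 62.9, 5.69 and 15 FPKM at P0 and 0.0895, 0 and 0 FPKM at P5 (log2 difference -4.20, standard error 0.70, adjusted p = 0.00241). In both, library M1 was the highest at P0 and M2 the lowest, and the P5 libraries were at or next to 0. Cyp2f2 and Cyp2b10 went the other way, and Cyp2f2 had 0.372, 1.22 and 0.858 FPKM at P0 and 9.28, 10.4 and 8.83 FPKM at P5 (log2 difference 2.55, standard error 0.17, adjusted p = 3.7e-05). Reads of neighbouring Cyp2 and Cyp3a genes, and of Serpina1a to Serpina1e, may be split between near-identical copies, so their single levels are uncertain.

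Of 12 genes of the urea cycle and amino acid breakdown 10 were lower (median -1.33), beside 20.1% of all genes. Of the 12, 3 were tested through P0 alone. Over the 18 above 0 FPKM 12 were lower, with a median of -0.95. Cps1, which starts the urea cycle, had 3.54, 2.70 and 2.98 FPKM at P0 and was listed at 0 in all P5 libraries. Asl and Arg1, later enzymes of the same cycle, were not called, and Asl had 24.7, 21.6 and 22.8 FPKM at P0 and 21.9, 20.3 and 20.9 FPKM at P5. Of 7 genes of gluconeogenesis and hepatic isozymes tested 6 were lower (median -2.42), and 6 of 9 above 0 FPKM (median -1.09). Fatty acid oxidation was touched less, with 11 of 14 genes lower and a median of -0.48. Acadm, an enzyme of the oxidation spiral, was not called and had 44.4, 47.8 and 47.2 FPKM at P0 and 44.2, 47.6 and 43.7 FPKM at P5.

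Among the members tested, transcription factors that set hepatocyte identity had a smaller median difference than the plasma protein, cytochrome P450 and urea cycle lists. Of 15 such factors tested 10 were lower, with a median of -0.77. Over all members above 0 FPKM the medians were -0.67 for these factors, -0.72 for cytochrome P450 and -0.95 for the urea cycle list. The contrast with cytochrome P450 genes thus rested largely on the filter, while the plasma protein median was -3.76 in both cases. Hnf4a, a master regulator of hepatocyte genes, was not called and had 60.7, 56.0 and 76.3 FPKM at P0 and 58.4, 61.3 and 63.0 FPKM at P5 (log2 difference -0.07, standard error 0.11, adjusted p = 0.645). Foxa1, Foxa2 and Cebpb were not called either. The groups of Hnf4a overlapped. Prox1, which acts in early hepatoblasts, had 9.37, 16.1 and 14.7 FPKM at P0 and 1.00, 1.71 and 1.18 FPKM at P5 (log2 difference -2.63, standard error 0.20, adjusted p = 6.87e-05). Cebpa, which drives hepatocyte maturation, had 16.3, 18.5 and 17.2 FPKM at P0 and 7.89, 8.13 and 8.45 FPKM at P5 (log2 difference -1.0, standard error 0.07, adjusted p = 3.73e-05), and the nuclear receptor partner Nr0b2 had 8.77, 10.4 and 10.3 FPKM at P0 and 1.96, 1.51 and 0.937 FPKM at P5 (log2 difference -2.15, standard error 0.15, adjusted p = 5.3e-05).

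The P0 libraries did not hold these transcripts evenly. Among 8 cytochrome P450 genes called lower, M1 was the highest P0 library for 6 and M2 the lowest for 7, and the median ratio of the highest to the lowest P0 library was 2.64. Among 21 plasma protein genes M1 was the highest for 14 and M2 the lowest for 12, with a median ratio of 1.75 and a largest ratio of 10.2 for Serpina6. Among 12 acute phase genes M2 was the highest for 8. The counts of 21 lower plasma protein genes and 16 lower coagulation genes were the same without any 1 library, and 11 acute phase genes were lower when any 1 P5 library was left out. Those fits kept the genes chosen over all 6 libraries. Of the 21 and the 16, 10 each were tested through P0 alone, so their direction was fixed by the filter.

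**Figure D2:**
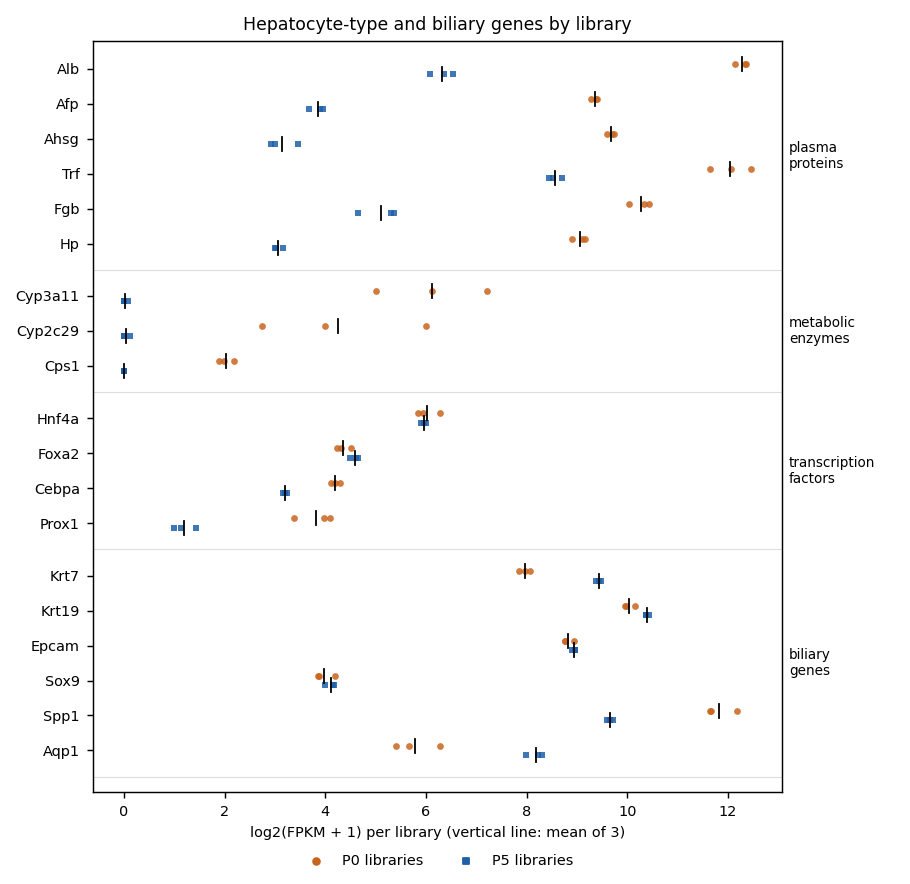
Level of hepatocyte-type and biliary genes in each library on the log2(FPKM + 1) scale (horizontal axis). Orange circles are the 3 P0 libraries, blue squares the 3 P5 libraries and vertical lines the group means. Plasma protein genes and metabolic enzymes drop at P5 without overlap, Hnf4a, Epcam and Sox9 keep overlapping or adjacent levels, and Krt7 and Aqp1 rise.

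Of 16 cholangiocyte markers tested, 4 were higher, 4 lower and 8 not called (median -0.08), shares near the 30.1% and 20.1% of all genes tested. Krt7, a keratin of mature duct cells, had 268, 228 and 248 FPKM at P0 and 696, 661 and 709 FPKM at P5 (log2 difference 1.47, standard error 0.07, adjusted p = 1.02e-05). Aqp1, the water channel of the apical membrane, had 76.4, 41.3 and 49.5 FPKM at P0 and 298, 253 and 317 FPKM at P5 (log2 difference 2.40, standard error 0.21, adjusted p = 0.000127). Spp1, which encodes osteopontin, fell from 3225, 4649 and 3173 FPKM to 841, 772 and 802 FPKM (log2 difference -2.17, standard error 0.14, adjusted p = 3.73e-05). Krt7 and Aqp1 separated fully in the upward direction and Spp1 fully in the downward one. Krt8 was lower at P5 and its partner Krt18 was not called, with differences of -0.51 and -0.07. Sox9, a factor of duct progenitors, was not called and had 13.5, 17.3 and 13.7 FPKM at P0 and 17.1, 14.9 and 16.8 FPKM at P5.

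Of 13 genes of ion and water transport 6 were higher, beside 30.1% of all genes, and 2 lower (median 0.25). The median rested on P0 M1 and on the filter, and was -0.01 without P0 M1 and 0.03 over the 16 genes above 0 FPKM. Aqp5, a second water channel, had 590.0, 561 and 615 FPKM at P0 and 1637, 1414 and 1667 FPKM at P5 (log2 difference 1.41, standard error 0.08, adjusted p = 1.66e-05), and it was the most abundant gene of the list at both passages. Cftr, the chloride channel of duct secretion, was not called and had 26.3, 21.5 and 57.5 FPKM at P0 and 25, 26.5 and 29.2 FPKM at P5, with M3 the highest at P0. Slc5a1, a sodium-linked glucose carrier, had 15.9, 22.7 and 23.0 FPKM at P0 and 5.48, 7.42 and 5.40 FPKM at P5 (log2 difference -1.59, standard error 0.16, adjusted p = 0.000276). Among 7 tested carriers of bile acids and organic anions, Abcc2, the canalicular conjugate pump, had 13.5, 9.94 and 11.4 FPKM at P0 and 0.0516, 0.149 and 0.106 FPKM at P5, and Abcb1b, a multidrug export pump, had 1.55, 1.25 and 0.965 FPKM at P0 and 9.07, 8.62 and 7.02 FPKM at P5 (log2 difference 2.04, standard error 0.12, adjusted p = 2.59e-05). Abcc2 fell and Abcb1b rose, with no overlap in either.

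Of 12 mucin and trefoil factor genes 7 were lower and 2 higher (median -0.91). Tff3, a small peptide that protects mucosal surfaces, had 1131, 262 and 679.9 FPKM at P0 and 63.4, 36.3 and 46.8 FPKM at P5 (log2 difference -3.60, standard error 0.49, adjusted p = 0.00094), and Tff1 had 1885, 761 and 1181 FPKM at P0 and 315, 207 and 298 FPKM at P5. Both had a wide range at P0, with M1 the highest and M2 the lowest. Muc20 and Muc5b were higher at P5. Of 15 primary cilium genes none was higher and 3 were lower (median -0.08), beside 30.1% and 20.1% of all genes tested. Most of the cilium list was thus not called. Foxj1, a factor of motile cilia that was counted with the epithelial transcription factors, had 10.1, 19.1 and 16.0 FPKM at P0 and 36.1, 38.8 and 34.5 FPKM at P5 (log2 difference 1.26, standard error 0.20, adjusted p = 0.00179).

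Genes of fetal liver were lower in 5 of 8 cases tested, beside 20.1% of all genes, and higher in 1 (median -1.58). Over the 12 above 0 FPKM 5 were lower and 3 higher, with a median of -0.19. Dlk1, a surface marker of hepatoblasts, had 18.5, 6.29 and 12.3 FPKM at P0 and 0.345, 0.0641 and 0.229 FPKM at P5 (log2 difference -3.36, standard error 0.32, adjusted p = 0.000195), and the imprinted transcript H19 had 36.3, 9.38 and 17.1 FPKM at P0 and 0.636, 0.837 and 0.559 FPKM at P5 (log2 difference -3.52, standard error 0.40, adjusted p = 0.000434). Both were highest in M1 and lowest in M2 at P0. Igf2bp2 was the tested member that rose, by 0.68. Among 11 progenitor and stem cell genes 5 were higher and 3 lower, beside 30.1% and 20.1% of all genes. Lgr5, the R-spondin receptor that marks dividing stem cells, had 31.7, 19.6 and 21.3 FPKM at P0 and 11.4, 11.3 and 10.8 FPKM at P5 (log2 difference -1.02, standard error 0.16, adjusted p = 0.00188), whereas Cd44 had 167, 133 and 127 FPKM at P0 and 212, 202 and 217 FPKM at P5 (log2 difference 0.57, standard error 0.10, adjusted p = 0.00322).

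Genes of stratified epithelium were among the gains. Of 15 squamous keratin and cornification genes tested, 12 were higher and 2 lower, with a median of 1.41. Dsg3, Cnfn and Lor were tested through P5 alone, and over the 24 members above 0 FPKM 11 were higher and 3 lower, with a median of 0.50. Dsg3, a desmosomal cadherin of stratified epithelium, had 0.230, 0.436 and 0.167 FPKM at P0 and 22.2, 23.5 and 21.9 FPKM at P5 (log2 difference 4.21, standard error 0.09, adjusted p = 3.25e-07), the largest rise of any named gene. Krt4, a keratin of the layers above the basal layer, had 17.7, 11.3 and 19 FPKM at P0 and 169, 168 and 175 FPKM at P5 (log2 difference 3.37, standard error 0.17, adjusted p = 1.14e-05). Krt6a, a keratin of activated keratinocytes, had 0.822, 1.11 and 1.22 FPKM at P0 and 10.1, 7.76 and 9.90 FPKM at P5 (log2 difference 2.32, standard error 0.12, adjusted p = 1.23e-05). In each of these every P5 library lay above every P0 library. Cnfn, Tgm1 and Lor, which take part in building the cornified envelope, rose by 2.32, 2.12 and 1.88, and Lor reached 5.60, 4.07 and 5.51 FPKM at P5. The small proline-rich gene Sprr2a3, which has near-identical neighbours, was the most abundant member with 705, 1108 and 853 FPKM at P0 and 1701, 1647 and 1716 FPKM at P5 (log2 difference 0.95, standard error 0.15, adjusted p = 0.00176).

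The basal layer genes of stratified epithelium were not among them. Trp63, the factor that defines basal cells, was at 0 in all 6 libraries. Krt5 and Krt14, the basal keratins, were below the level for testing too, with at most 0.144 and 0.0763 FPKM in any of the 6 libraries. Krt17 and Ly6d were the 2 tested members that fell, and Krt17 had 2.62, 5.14 and 2.33 FPKM at P0 and 0.205, 0.659 and 0.303 FPKM at P5 (log2 difference -1.61, standard error 0.24, adjusted p = 0.00141). Among simple keratins 3 of 6 were higher, with Krt23 at 102, 113 and 102 FPKM at P0 and 186, 143 and 176 FPKM at P5.

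Of 21 genes for collagens, laminins and integrins 15 were higher and 4 lower (median 0.55). Col4a1 and Col4a2, the paired chains of basement membrane collagen, rose by 1.73 and 1.84, and Col4a1 had 52.1, 52.3 and 40.7 FPKM at P0 and 166, 152 and 166 FPKM at P5. Lamb3, a chain of the epithelial laminin that anchors hemidesmosomes, had 8.67, 10.1 and 10.6 FPKM at P0 and 34.2, 35.2 and 36.4 FPKM at P5 (log2 difference 1.75, standard error 0.08, adjusted p = 7.97e-06), and its receptor chain Itgb4 had 24.0, 26.4 and 26.0 FPKM at P0 and 52.9, 51.3 and 51.5 FPKM at P5 (log2 difference 1.00, standard error 0.06, adjusted p = 2.08e-05). Fn1, which encodes fibronectin and is also a plasma protein of hepatocytes, fell from 102, 165 and 118 FPKM to 10.9, 15.2 and 13.9 FPKM (log2 difference -3.16, standard error 0.19, adjusted p = 2.34e-05). The named basement membrane chains lay higher at P5 without overlap, and fibronectin lower. Of 14 matrix enzymes and inhibitors tested 8 were higher and 4 lower (median 0.34), and of 20 above 0 FPKM 7 and 4 (median 0.05). Timp3, a matrix-bound inhibitor of metalloproteinases, had 49.9, 84.9 and 48.1 FPKM at P0 and 424, 406 and 429 FPKM at P5 (log2 difference 2.81, standard error 0.20, adjusted p = 5.08e-05). Loxl4, a collagen cross-linking enzyme, had 0.165, 0.330 and 0.123 FPKM at P0 and 5.74, 4.74 and 6.47 FPKM at P5 (log2 difference 2.46, standard error 0.12, adjusted p = 9.81e-06), and Mmp7 had 2038, 2905 and 2305 FPKM at P0 and 1218, 1309 and 1229 FPKM at P5 (log2 difference -0.93, standard error 0.12, adjusted p = 0.000837).

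The remaining named genes with the largest rises are of mixed function. Prss12, a secreted serine protease, had 1.94, 4.96 and 2.90 FPKM at P0 and 37.2, 29.0 and 37.1 FPKM at P5 (log2 difference 3.11, standard error 0.24, adjusted p = 7.62e-05). Ecm1, an extracellular matrix protein, had 5.82, 10.3 and 5.85 FPKM at P0 and 56.4, 53.7 and 56.7 FPKM at P5, and Stra6, the receptor for retinol binding protein, had 0.641, 1.92 and 0.666 FPKM at P0 and 12.1, 12.3 and 11.7 FPKM at P5. Ramp3, which pairs with the calcitonin-type receptors, had 0.377, 0.968 and 0.312 FPKM at P0 and 10.8, 10.3 and 9.92 FPKM at P5. None of these 4 genes was in a list. All were picked among genes whose passages did not overlap, so their separation is no further evidence. Pgc, a stomach pepsinogen, had 0.779, 1.45 and 0.648 FPKM at P0 and 13.3, 6.99 and 11.7 FPKM at P5 (log2 difference 2.55, standard error 0.24, adjusted p = 0.000171), and the homeobox gene Rhox5 had 0.318, 0.663 and 1.86 FPKM at P0 and 8.59, 11.8 and 12.6 FPKM at P5 (log2 difference 2.69, standard error 0.28, adjusted p = 0.000273).

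Several ligands and feedback genes of growth factor signalling were higher at P5, while the receptors of EGF and HGF were not called. Of 16 genes of EGF and HGF signalling 9 were higher and 0 lower (median 0.31). Areg, a ligand of the EGF receptor, had 20.9, 20.5 and 18.9 FPKM at P0 and 60.9, 59.5 and 60.9 FPKM at P5 (log2 difference 1.55, standard error 0.06, adjusted p = 3.54e-06). Ereg, another ligand, had 4.43, 4.32 and 5.0 FPKM at P0 and 19.8, 16.5 and 20.6 FPKM at P5 (log2 difference 1.83, standard error 0.10, adjusted p = 1.32e-05). Egfr and Met, the receptors for EGF and HGF, were not called, with differences of 0.04 and 0.07. Dusp4, a phosphatase induced by ERK signalling, had 18.4, 18.5 and 18.3 FPKM at P0 and 39.0, 37.5 and 39.4 FPKM at P5 (log2 difference 1.03, standard error 0.05, adjusted p = 1.13e-05). Of 15 YAP target genes 11 were higher and 1 lower (median 0.68), and Ccn2, a secreted matrix-associated protein, had 92.9, 153 and 84.7 FPKM at P0 and 335, 305 and 343 FPKM at P5 (log2 difference 1.61, standard error 0.20, adjusted p = 0.00066). Ankrd1, of the same list, was not called and had its highest value in M2 at P0, with 46.3, 155 and 65.5 FPKM at P0 and 94.3, 91.6 and 88.4 FPKM at P5.

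Of 13 Wnt pathway genes 3 were higher and 4 lower (median -0.08), beside 30.1% and 20.1% of all genes tested. Ccnd1, Myc and Wnt7b were the 3 that rose, by 1.26, 1.29 and 1.37, and Myc had 34.3, 30.8 and 31.7 FPKM at P0 and 78.7, 80.9 and 81.8 FPKM at P5. Of the 4 that fell, Lgr5 had the largest difference, -1.02, and its values are given with the progenitor genes. Axin2, Sp5, Rnf43 and Znrf3, direct feedback targets of the pathway named here after their values were seen, were not called. Axin2 had 5.73, 4.59 and 5.47 FPKM at P0 and 5.43, 5.54 and 5.85 FPKM at P5. Of 13 Notch genes 6 were higher and 3 lower (median 0.27), beside the same shares. The ligand Jag2 had 11.5, 12.9 and 12.1 FPKM at P0 and 28.5, 29.2 and 28.6 FPKM at P5 (log2 difference 1.17, standard error 0.06, adjusted p = 1.26e-05), the target Hes1 rose by 0.54 and the target Hey1 fell by 1.20. Of 14 TGF-beta and BMP genes 3 were higher and 6 lower (median -0.18), again beside 30.1% and 20.1%. Bmp4, a secreted ligand, had 4.23, 6.57 and 4.88 FPKM at P0 and 26.0, 25.4 and 26.5 FPKM at P5 (log2 difference 2.13, standard error 0.13, adjusted p = 2.41e-05), while Bmp7, another, had 7.57, 8.86 and 6.8 FPKM at P0 and 1.48, 1.74 and 1.75 FPKM at P5 (log2 difference -1.71, standard error 0.10, adjusted p = 2.16e-05). Id1, Id2 and Id3, which respond to BMP, had differences of -0.34, -0.71 and -0.60, of which that of Id1 lost its call without any 1 P5 library (adjusted p = 0.0755 to 0.105).

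**Figure D3:**
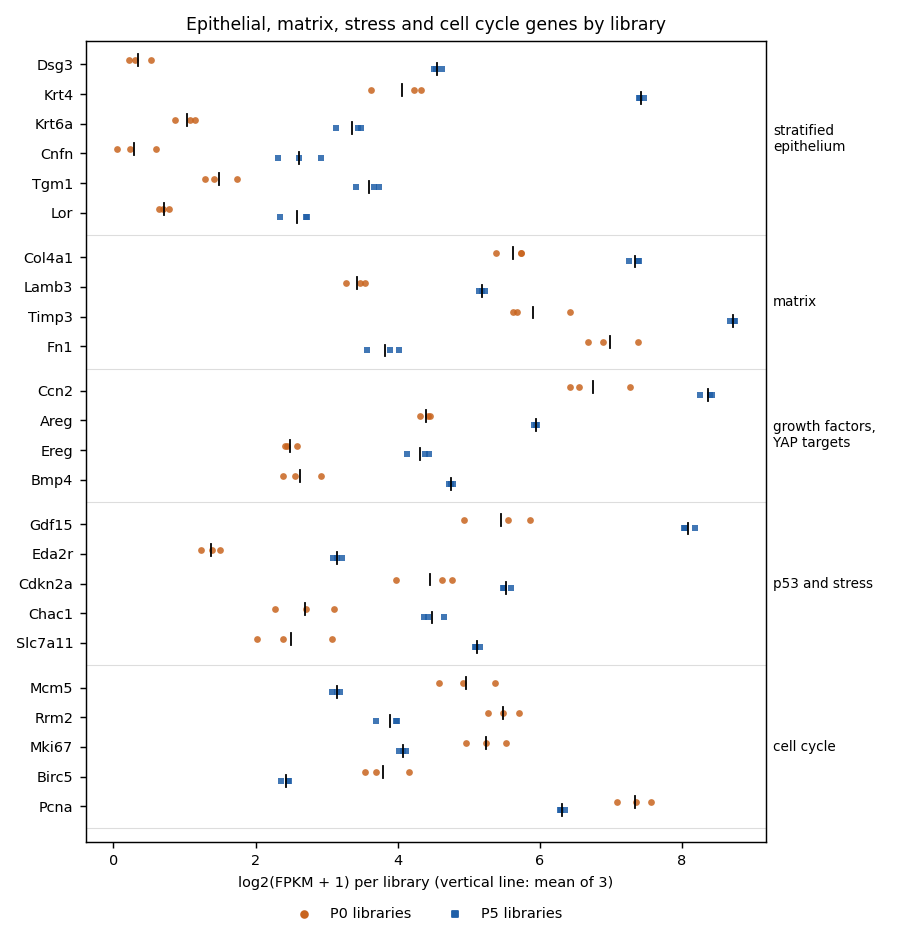
Level of genes of stratified epithelium, matrix, growth factors, p53 and stress responses and the cell cycle in each library on the log2(FPKM + 1) scale (horizontal axis). Orange circles are the P0 libraries, blue squares the P5 libraries (3 each) and vertical lines the group means. Apart from Fn1 and the cell cycle genes, which drop, each gene shown is higher in every P5 library than in any P0 library.

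The cell cycle genes fell together. Of 28 DNA replication genes 28 were lower (median -1.04), and of 26 genes of mitosis and cytokinesis 24 were lower (median -0.87). Mcm5, a subunit of the replicative helicase, had 40.5, 22.9 and 29.2 FPKM at P0 and 7.41, 7.87 and 8.15 FPKM at P5 (log2 difference -1.82, standard error 0.18, adjusted p = 0.00023). Rrm2, which makes deoxynucleotides, had 51.4, 37.7 and 43.5 FPKM at P0 and 14.7, 14.9 and 11.9 FPKM at P5 (log2 difference -1.60, standard error 0.13, adjusted p = 8.8e-05). Mki67, the common marker of dividing cells, had 44.9, 30.0 and 37.0 FPKM at P0 and 15.2, 16.3 and 15.8 FPKM at P5 (log2 difference -1.17, standard error 0.13, adjusted p = 0.000413). All 3 were highest in M1 at P0, as were 27 of the 28 replication genes and 24 of the 24 mitosis genes called, and M2 was the lowest P0 library for 26 and 19 of them. The P5 values stayed above 0, with Pcna, the sliding clamp of DNA polymerase, at 77.5, 76.7 and 80.6 FPKM at P5. Kif23 and Anln were the 2 genes of mitosis that were not called. Without P0 M1, the counts of lower genes were 28 of 28 and 24 of 26.

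Short motifs known from such promoters were searched in RefSeq windows from 250 bases before to 50 bases after a gene's start (build GRCm38.p6, both strands). A match describes the letters only. The letters TTTGAA, known as the cell cycle homology region (CHR), or the reverse complement, were found for 16 of 21 mitosis genes that have a window, against 1261 of the 9034 genes tested that have one (14%) and 17.9% of all 32851 windows in the table. The E2F-type letters TTTGGCGC were found for 5 of 22 replication genes, against 105 of 9034 (1.16%) and 0.514% of all windows. The second E2F form searched, TTTCCCGC, was found for 4 of 22 replication genes, against 222 of 9034 (2.46%) and 1.07% of windows, and Mcm3 held both forms. The 200 bases before the start of Mcm6 (chr1:128359706-128359905, minus strand) and of Cdk1 (chr10:69352913-69353112, minus strand) are shown as the examples with 2 matches each, in capitals. The matches start 110 and 47 bases before the start of Mcm6, another helicase subunit, and 71 and 15 bases before that of Cdk1, the mitotic kinase.
Mcm6: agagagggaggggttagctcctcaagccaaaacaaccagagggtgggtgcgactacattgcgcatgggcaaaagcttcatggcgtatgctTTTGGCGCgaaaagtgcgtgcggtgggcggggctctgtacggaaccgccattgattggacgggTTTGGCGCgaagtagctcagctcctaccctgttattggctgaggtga
Cdk1: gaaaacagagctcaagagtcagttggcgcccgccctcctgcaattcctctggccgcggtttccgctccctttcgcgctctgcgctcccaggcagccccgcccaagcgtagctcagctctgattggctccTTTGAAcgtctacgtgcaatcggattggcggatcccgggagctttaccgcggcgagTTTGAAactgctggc
Mcm6 had 39.7, 24.6 and 28.6 FPKM at P0 and 10.9, 12.9 and 11.3 FPKM at P5 (log2 difference -1.31, standard error 0.16, adjusted p = 0.000616), and Cdk1 had 24.8, 19 and 18.9 FPKM at P0 and 13.1, 14.1 and 12.7 FPKM at P5 (log2 difference -0.60, standard error 0.11, adjusted p = 0.0033). Both were lower in every P5 library than in any P0 library, Cdk1 by less.

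Inhibitors of the cell cycle and p53 targets rose. Of 18 genes 12 were higher and 1 was lower, with a median of 0.84. Gdf15, a secreted stress hormone, had 29.6, 56.9 and 45.8 FPKM at P0 and 259, 289 and 263 FPKM at P5 (log2 difference 2.64, standard error 0.21, adjusted p = 8.4e-05). Eda2r, a receptor of the TNF family induced by p53, had 1.82, 1.34 and 1.62 FPKM at P0 and 7.49, 8.31 and 7.87 FPKM at P5 (log2 difference 1.78, standard error 0.09, adjusted p = 1.02e-05). Cdkn2a, which encodes the inhibitors p16 and p19, had 26.2, 14.7 and 23.7 FPKM at P0 and 47.3, 44.0 and 43.8 FPKM at P5 (log2 difference 1.07, standard error 0.19, adjusted p = 0.00298). These 3 separated fully between passages, as did 61.7% of all genes tested. Mdm2, Ccng1, Phlda3, Zmat3 and Bbc3, all established p53 targets, rose by 1.04 to 1.25. Trp53 itself was not called, with 32.2, 24.1 and 28.4 FPKM at P0 and 26.3, 26.0 and 26.6 FPKM at P5, and Cdkn2c was the member that fell, by 0.96. The rise of Ccnd1, given with the Wnt genes, went with a fall of Ccna2, a cyclin of S phase and mitosis, which had 46.9, 31.2 and 34.6 FPKM at P0 and 15.8, 16.0 and 14.2 FPKM at P5 (log2 difference -1.22, standard error 0.14, adjusted p = 0.000469).

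Stress and nutrient genes were mostly higher. Of 16 genes of the unfolded protein and integrated stress responses 12 were higher and 0 lower (median 0.56). Chac1, which breaks down glutathione, had 7.63, 5.52 and 3.85 FPKM at P0 and 24.1, 19.6 and 20.5 FPKM at P5 (log2 difference 1.78, standard error 0.20, adjusted p = 0.000357). Atf4, the factor that induces this branch, had 119, 85.4 and 87.0 FPKM at P0 and 201, 187 and 183 FPKM at P5 (log2 difference 0.98, standard error 0.13, adjusted p = 0.000732), and its partner Ddit3 had 8.28, 10.7 and 7.92 FPKM at P0 and 21.3, 19.5 and 19.7 FPKM at P5 (log2 difference 1.10, standard error 0.11, adjusted p = 0.000218). The chaperone Hspa5 rose by 0.57, and Hsp90b1, another, was not called. Of 9 amino acid transporters 7 were higher and 0 lower (median 0.82), led by Slc3a2, the heavy chain shared by several of them, with 15.3, 13.4 and 10.8 FPKM at P0 and 36.9, 33.9 and 34.8 FPKM at P5 (log2 difference 1.36, standard error 0.12, adjusted p = 0.000116). Of 17 NRF2 antioxidant genes 9 were higher and 1 lower (median 0.31). Slc7a11, the cystine carrier, had 7.46, 4.23 and 3.07 FPKM at P0 and 33.0, 34.8 and 33.2 FPKM at P5 (log2 difference 2.62, standard error 0.24, adjusted p = 0.000148). Nqo1, a quinone reductase, had 3.72, 2.50 and 3.83 FPKM at P0 and 14, 17.5 and 15.9 FPKM at P5 (log2 difference 1.96, standard error 0.14, adjusted p = 5.24e-05), whereas Hmox1, another classical target, was not called and had 47.8, 36.5 and 36.3 FPKM at P0 and 42.4, 37.0 and 40.9 FPKM at P5.

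The stretch before Chac1 (chr2:119351042-119351241, plus strand) is shown because Chac1 had the largest rise of its list. Its capitals mark the reverse complement of TGATGCAA, the C/EBP-ATF response element, 193 bases before the start.
Chac1: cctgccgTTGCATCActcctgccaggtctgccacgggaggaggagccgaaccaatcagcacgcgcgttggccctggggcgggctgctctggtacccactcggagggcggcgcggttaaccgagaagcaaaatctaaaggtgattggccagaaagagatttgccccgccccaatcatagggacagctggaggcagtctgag
The element was found for 2 of 15 genes of the stress list that have a window and for 2 of 5 amino acid transporters, against 66 of 9034 genes (0.731%) and 0.895% of windows. The 2 of the stress list were Chac1 and Herpud1, and Herpud1 was not called, with a difference of 0.02. The antioxidant letters TGACNNNGC were found for 6 of 13 NRF2 genes, against 1537 of 9034 genes (17%) and 12.4% of windows.

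Interferon-stimulated and antigen presentation genes were lower at P5. Of 16 interferon-stimulated genes tested 12 were lower and 0 higher (median -0.70), and of 11 antigen presentation genes 8 were lower and 0 higher (median -0.72). Isg15, a ubiquitin-like modifier, had 53.7, 39.2 and 30.5 FPKM at P0 and 18.3, 14.7 and 16.8 FPKM at P5 (log2 difference -1.23, standard error 0.19, adjusted p = 0.00163). Ifi44 had 24.1, 21.6 and 16.6 FPKM at P0 and 6.78, 3.88 and 6.17 FPKM at P5 (log2 difference -1.73, standard error 0.20, adjusted p = 0.000429), the largest fall of the list. M1 was the highest P0 library for 12 of the 12 interferon genes called. B2m, the light chain of class I molecules, had 1159.9, 1533 and 1201 FPKM at P0 and 689, 683 and 725 FPKM at P5 (log2 difference -0.88, standard error 0.11, adjusted p = 0.000571). Cd74, which escorts class II molecules, had 3.55, 23.8 and 7.15 FPKM at P0 and 2.11, 1.45 and 1.86 FPKM at P5 (log2 difference -1.80, standard error 0.54, adjusted p = 0.027), with 1 high value in P0 M2. The call of Cd74 was lost when P0 M3 or any 1 P5 library was left out (adjusted p = 0.0522 to 0.0872).
The stretch before Isg15 (chr4:156200819-156201018, minus strand) holds 3 overlapping matches to the interferon-stimulated response element (ISRE), searched as GAAA, any 2 bases and GAAA, in capitals, starting 78 to 66 bases before the start. It is shown as the clearest case of the motif in a gene that fell.
Isg15: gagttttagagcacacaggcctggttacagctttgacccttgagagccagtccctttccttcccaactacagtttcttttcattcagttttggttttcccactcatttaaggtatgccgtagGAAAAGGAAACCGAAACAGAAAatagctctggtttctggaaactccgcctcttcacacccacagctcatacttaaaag
This element was found in the windows of 8 of 14 interferon-stimulated genes, against 316 of 9034 genes tested (3.50%) and 3.44% of all windows. Rsad2 and Stat2, which hold it, were not called.

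Of 13 epithelial cytokines 4 were higher and 4 lower, beside 30.1% and 20.1% of all genes tested. The neutrophil and monocyte attractants Cxcl1 and Ccl2 fell by 1.26 and 1.57, and Ccl20, which attracts immature dendritic cells and lymphocytes, had 11.4, 5.65 and 7.02 FPKM at P0 and 30.3, 30.1 and 27.3 FPKM at P5 (log2 difference 1.79, standard error 0.21, adjusted p = 0.00045). Il33, a nuclear alarmin, had 66.0, 56.6 and 62.8 FPKM at P0 and 127, 119.7 and 126 FPKM at P5 (log2 difference 1.00, standard error 0.07, adjusted p = 4.88e-05). Glucocorticoid targets were lower in 5 of 10 cases and higher in 1 (median -0.69). Sgk1, a kinase that regulates sodium transport, had 34.9, 45.0 and 37.7 FPKM at P0 and 3.90, 3.19 and 4.48 FPKM at P5 (log2 difference -3.05, standard error 0.13, adjusted p = 4.9e-06), and Fkbp5, a sensitive target of the receptor, was not called with 23.8, 20.7 and 34.4 FPKM at P0 and 18.8, 25.1 and 23.4 FPKM at P5. The sources list the medium for cholangiocyte organoids without separating passages. Dexamethasone is not listed for it, and the contents of its B27 supplement are not given. The part of the medium in these differences was not tested. Of 17 immediate early genes 5 were higher and 4 lower, shares close to those of all genes tested, and 2 were lower without any 1 P5 library and 6 without P0 M2. Fosb had 11.6, 1.12 and 2.71 FPKM at P0 and 0.133, 0.215 and 0.297 FPKM at P5 (log2 difference -1.93, standard error 0.57, adjusted p = 0.0249), a call lost without any 1 P5 library (adjusted p = 0.0633 to 0.0731). Of the other members, Fos, Egr1, Atf3 and Nr4a1 were not called, and P0 M1 was the highest library for Fosb, Fos, Egr1, Atf3 and Nr4a1.

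Core metabolism and the translation machinery moved by small amounts. Over all genes tested 30.1% were higher and 20.1% lower. Of 82 cytosolic ribosomal protein genes 49 were higher and 0 lower (median 0.22), and their share of the summed FPKM went from 12.6% ± 0.717 to 15.1% ± 0.221. The count rested on single libraries. It was 74 without P0 M1, 28 without P0 M3, and 30, 27 and 31 without P5 M1, M2 and M3. Of 83 nuclear genes of oxidative phosphorylation 30 were lower and 6 higher (median -0.12), and 12 to 18 were lower when a P5 library was left out. Cholesterol synthesis was lower for 3 and higher for 2 of 23 genes, although 8 were lower without P0 M2. Of 17 fatty acid synthesis genes 10 were lower and 2 higher (median -0.25), and 6 were lower without P5 M1 or P5 M2. Dgat2, which makes triglyceride, had 27.3, 26.9 and 29.2 FPKM at P0 and 9.08, 7.48 and 8.56 FPKM at P5 (log2 difference -1.62, standard error 0.08, adjusted p = 1.02e-05). Of 17 glycolysis genes 7 were higher and 3 lower (median 0.08). Many glycolytic and ribosomal genes have processed copies in the genome, so their levels are uncertain.

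Other short lists complete the account, and their counts stand beside the 30.1% higher and 20.1% lower of all genes tested. Of 7 genes of the aryl hydrocarbon receptor battery 3 were higher and 1 lower, with Cyp1b1 at 9.21, 5.21 and 8.72 FPKM at P0 and 37.5, 42.1 and 35.8 FPKM at P5 (log2 difference 2.21, standard error 0.18, adjusted p = 0.000102) and Cyp1a1 at 8.33, 8.24 and 7.45 FPKM at P0 and 3.43, 4.29 and 3.90 FPKM at P5. Of 11 iron genes 5 were lower and 3 higher, but 1 was higher without P0 M3, without any 1 P5 library and with median-ratio size factors, and 0 with no filter on level. Of 15 claudin and tight junction genes 4 were higher and 1 lower (median 0.08), and 5 were lower without P0 M1. Of 17 biliary and epithelial transcription factors 5 were higher and 3 lower, shares close to those of all genes tested. Of 12 housekeeping genes 2 were higher and 4 lower (median -0.03). Of 13 mitochondrially encoded genes 1 was higher and 5 were lower.

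**Figure D4:**
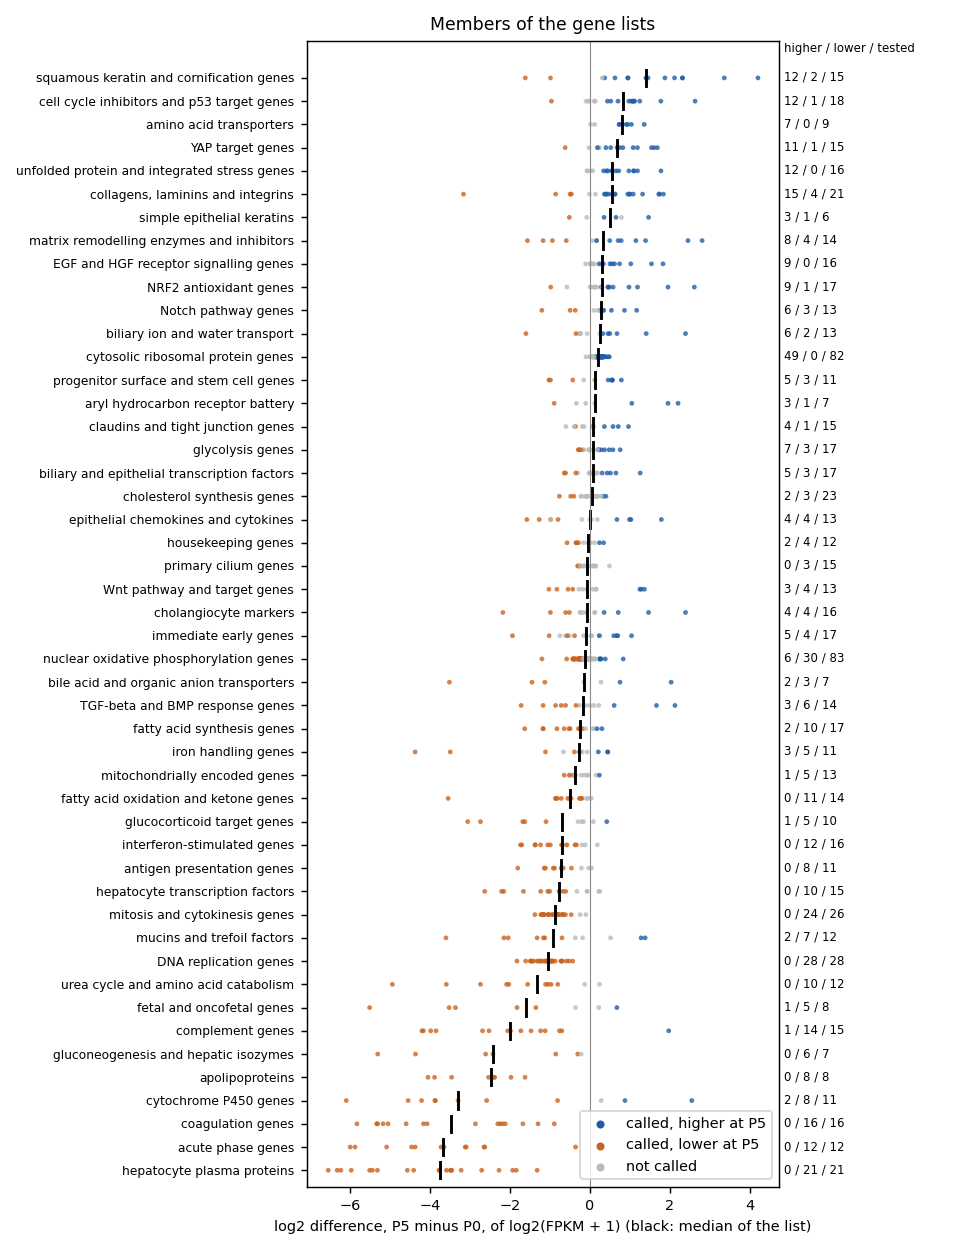
Log2 difference, P5 minus P0, of each tested member of the gene lists (points), sorted by the list median (black bars), with the number of members called higher, called lower and tested at the right. Blue points were called higher at P5, orange points lower and grey points were not called. Lists of macrophages, endothelium, mesenchyme, blood and mesothelium, with 1 to 3 genes tested each, are not plotted. Hepatocyte lists fill the bottom with medians down to -3.76, and of the lists plotted the squamous list stands at the top with a median of 1.41 over its 15 members tested.

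A gene was counted as switched on when it was below 0.3 FPKM in all 3 P0 libraries and at least 1 FPKM in all 3 P5 libraries, and as switched off in the converse case. By this definition 39 genes were switched on and 100 switched off, of which 35 and 96 are protein coding. The definition uses the same values as the test, so all 139 were called and that is no further evidence.

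The genes switched off were led by hepatocyte products. The 12 of highest P0 level were Cyp3a11, Plg, Uox, Kng1, Serpina6, Serpina3n, Cfhr2, Cyp2c29, Serpinf2, Cyp3a25, Serpind1 and Cyp1a2. Uox, the urate oxidase of mouse liver, had 49.4, 43.4 and 52.7 FPKM at P0 and 0.230, 0.128 and 0.0283 FPKM at P5, with no wide range among the P0 libraries. Kng1, the kininogen of plasma, had 63.9, 32.1 and 44.8 FPKM at P0 and 0.266, 0.105 and 0.0873 FPKM at P5. Serpina6, the plasma carrier of cortisol-type hormones, had 62.6, 6.16 and 36.9 FPKM at P0 and 0.0657, 0.212 and 0.0162 FPKM at P5, with M2 far below M1. A few genes outside the hepatocyte lists, named here after their values were seen, were also lost. Lyz2, a lysozyme of macrophages and some epithelia, went from 9.63, 14.1 and 15.8 FPKM to 0 in all 3 P5 libraries. Fabp4, a fatty acid carrier of fat cells and macrophages, had 5.13, 5.94 and 4.53 FPKM at P0 and was listed at 0 at P5. Cdh2, the cadherin of hepatocytes and mesenchyme, had 4.21, 5.88 and 3.99 FPKM at P0 and 0.0558, 0.0421 and 0.0943 FPKM at P5. Gfra1, a co-receptor of the GDNF family, had 4.21, 4.28 and 4.32 FPKM at P0 and 0.0147, 0.0921 and 0.0434 FPKM at P5.

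The summed level of the 14 Kupffer cell and macrophage genes was 43.9 to 49.9 FPKM at P0 and 72.1 to 77.3 FPKM at P5, carried at P5 by Cd68, a lysosomal protein found beyond macrophages, with 31.8, 33.2 and 26.1 FPKM at P0 and 71.8, 76.9 and 74.7 FPKM at P5. C1qa and Adgre1, which mark tissue macrophages, were under 1 FPKM in each P0 library and at 0 in each P5 library. Csf1r, another macrophage gene, was under 1 FPKM in every library but did not go to 0. It had 0.343, 0.814 and 0.357 FPKM at P0 and 0.307, 0.413 and 0.600 FPKM at P5. The part of macrophages in the loss of Lyz2 was not tested. The summed level of the 14 stellate and mesenchymal genes went from 64.7 to 80.1 FPKM at P0 to 7.75 to 8.51 FPKM at P5. Nearly all of it was Reln, a secreted guidance protein, with 60.2, 72.8 and 74.5 FPKM at P0 and 7.01, 7.99 and 7.07 FPKM at P5 (log2 difference -3.07, standard error 0.10, adjusted p = 1.48e-06). Lrat, Pdgfrb, Col1a1 and Dcn, which define these cells, were under 1 FPKM in all 6 libraries. Rgs5, the member tested besides Reln, was switched off and was tested through P0 alone. It had 3.87, 4.89 and 3.73 FPKM at P0 and 0.0402, 0.0513 and 0.0283 FPKM at P5 (log2 difference -2.30, standard error 0.10, adjusted p = 6.44e-06).

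Among the genes switched on, the 12 named ones of highest P5 level were Eif4a3l1, Clca4a, Tcstv1, Ctnnd2, Nt5e, Chit1, Ano3, Igfbp2, Pax9, Tcstv3, Sp110 and Map6. Clca4a, a gene of secretory epithelium, had 0, 0.142 and 0.248 FPKM at P0 and 2.60, 5.98 and 4.34 FPKM at P5 (log2 difference 2.19, standard error 0.23, adjusted p = 0.000279). Nt5e, the ectoenzyme CD73 that makes adenosine, had 0.0420, 0.266 and 0.0429 FPKM at P0 and 2.78, 2.26 and 2.77 FPKM at P5 (log2 difference 1.69, standard error 0.11, adjusted p = 3.73e-05). Igfbp2, a binding protein of insulin-like growth factors, had 0.102, 0.146 and 0.0893 FPKM at P0 and 2.18, 2.48 and 2.91 FPKM at P5 (log2 difference 1.66, standard error 0.10, adjusted p = 2.16e-05). These 3 stayed under 6 FPKM in every P5 library. The highest levels among all genes switched on were those of the unnamed models Gm36627 and Gm36718, singled out after their values were seen, with means of 17 and 15.7 FPKM at P5, followed by Eif4a3l1, given with the next set. Pax9, a factor of the pharyngeal and oesophageal epithelium, had 0.122, 0.250 and 0.114 FPKM at P0 and 3.12, 1.85 and 2.50 FPKM at P5 (log2 difference 1.57, standard error 0.14, adjusted p = 0.00014), and Ctnnd2, a catenin, had 0.122, 0.153 and 0.0761 FPKM at P0 and 2.76, 2.63 and 2.72 FPKM at P5 (log2 difference 1.73, standard error 0.07, adjusted p = 6.28e-06).

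A further set among the genes switched on belongs to families known from the 2-cell stage of the mouse embryo. They were gathered after their values had been seen, so their counts describe them and support nothing further. Of 35 genes of these families looked for, 31 were in the table. In 28 of the 31 every P5 library was above every P0 library, 17 were at 0 in all P0 libraries, and 13 met the definition of switched on. Their summed level was 0.256 to 0.435 FPKM at P0 and 43.9 to 58.2 FPKM at P5. Eif4a3l1, a copy of an RNA helicase gene, had 0.0319, 0 and 0 FPKM at P0 and 9.81, 8.57 and 15.2 FPKM at P5. Tcstv1, named for 2-cell embryo transcripts, was listed at 0 at P0 and had 2.66, 4.28 and 4.41 FPKM at P5. Usp17lc, a deubiquitinase of a multigene family, had 0.0148, 0 and 0 FPKM at P0 and 1.67, 1.34 and 2.14 FPKM at P5. Gm21818, B020031M17Rik and Gm20767 are unnamed models of the set, and B020031M17Rik rose from 0 in all P0 libraries to 3.92, 4.25 and 4.66 FPKM at P5. Zfp352, below the level for testing, was at 0 at P0 and had 0.749, 0.951 and 1.07 FPKM at P5. Zscan4d, the best known marker of this stage, had 0.0126, 0 and 0 FPKM at P0 and 0.279, 0.211 and 0.223 FPKM at P5, and Duxf3, which is known to act upstream, was at 0 in the P5 libraries. These families hold many near-identical copies, so the level of a single member is uncertain and reads may be shared among them.

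Some genes known from other lineages rose while most markers that define those lineages stayed near 0. Msln, which encodes mesothelin, had 112, 124 and 97.3 FPKM at P0 and 608, 539.9 and 573 FPKM at P5 (log2 difference 2.36, standard error 0.10, adjusted p = 4.63e-06), while Wt1 and Upk3b, which define mesothelium, stayed under 1 FPKM. Vwf, a clotting protein of endothelium, had 0.704, 0.451 and 0.668 FPKM at P0 and 6.21, 4.74 and 6.28 FPKM at P5 (log2 difference 2.06, standard error 0.12, adjusted p = 1.85e-05), and Tek, the angiopoietin receptor, had 0.668, 0.362 and 1.5 FPKM at P0 and 14.2, 9.18 and 16.2 FPKM at P5 (log2 difference 2.96, standard error 0.26, adjusted p = 0.000134). Pecam1, Cdh5 and Stab2, which define endothelium, stayed under 0.1 FPKM in all 6 libraries. Tigit, a receptor of T cells, had 1.33, 0.703 and 0.575 FPKM at P0 and 10.3, 9.93 and 10.6 FPKM at P5 (log2 difference 2.62, standard error 0.14, adjusted p = 1.52e-05), and Cd3e, a chain of the T cell receptor complex, had 0.413, 0.627 and 0.118 FPKM at P0 and 2.79, 2.52 and 2.36 FPKM at P5 (log2 difference 1.37, standard error 0.14, adjusted p = 0.000269). Ptprc, carried by all white blood cells, was at 0 in the 3 P5 libraries. The part of such cells in these rises was not tested.

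**Figure D5:**
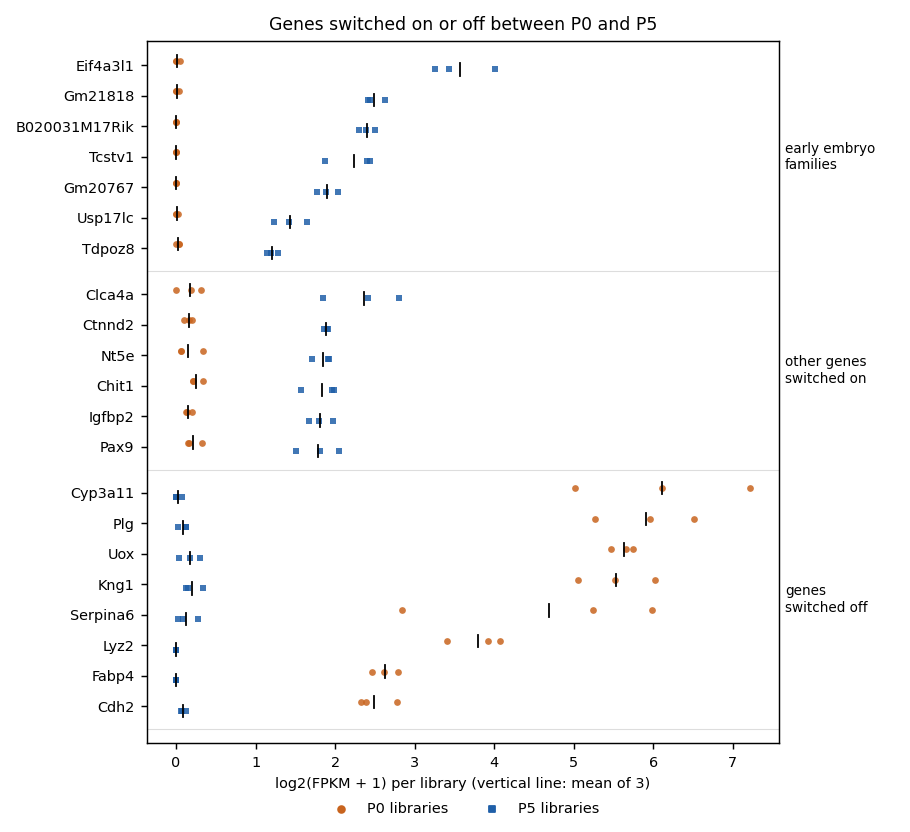
Level of genes switched on or off in each library on the log2(FPKM + 1) scale (horizontal axis). Orange circles are the 3 P0 libraries, blue squares the 3 P5 libraries and vertical lines the group means. The 7 early embryo genes shown sit at or near 0 in all P0 libraries and above 1 on this scale in all P5 libraries, and the genes switched off show the converse.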

How the data were processed

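Bulk poly(A) RNA of cholangiocyte organoids, 3 libraries at P0 and 3 at P5, was sequenced as 150-base paired ends. The FPKM values are as deposited by the authors, per library and not pooled. The submitters' processing notes name featureCounts 2.0.3, edgeR 3.40.2 and build mm10. The aligner and the annotation release are not given in the sources used here. The depth was estimated from steps between low values, so it is approximate and gives no counting interval. The other deposited tables, normalized separately, and the P10 libraries, except in 1 alternative, were left out.

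Groups came from the sample titles. Values were analysed as log2(FPKM + 1) for genes of at least 1 FPKM in at least 3 of the 6 libraries, with limma 3.58.1 in R 4.3.3 (empirical Bayes with trend, two-sided, Benjamini-Hochberg adjustment over 11339 genes, threshold 0.05), checked on simulated data. A count test does not apply to FPKM. An exact permutation test of 3 against 3 cannot go below 0.1, so no single value was tested alone. Replicate numbers were not used as pairs. The 54 gene lists, and the comparison itself, were chosen with earlier results of these data known, and lists were described by counts and medians without a set test. A list of Y-linked genes and Xist, of which 1 was in the table and tested, was made only as a sample check and is not described. Tables and figures were made with Python 3.11.15.

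Named were the genes the study uses as markers, the 15 named genes with the largest difference in each direction, up to 6 called and 3 abundant members of each list, 12 genes switched on and 12 off, the 10 genes of largest gain, loss and abundance, and defining markers of other cells. The 15 in each direction were taken among called genes whose groups did not overlap, so their separation was fixed by the choice. Named outside this rule, after their values were seen, were Acadm, Anln, Arg1, Asl, Atf3, Axin2, B020031M17Rik, C1qa, Cd55, Cdh2, Cdk1, Cdkn2a, Cdkn2c, Cebpa, Cpb2, Cyp2b10, Duxf3, Egfr, F9, Fabp4, Fkbp5, Fos, Foxa1, Gfra1, Gm20767, Gm21818, Gm36627, Gm36718, Herpud1, Hmox1, Hrg, Id3, Itgb4, Kif23, Krt14, Krt17, Krt5, Mcm6, Mdm2, Met, Nr4a1, Rnf43, Rsad2, Serpina1a, Serpina1e, Sp5, Stat2, Trp53, Trp63, Usp17lc, Zfp352, Znrf3 and Zscan4d. Promoter windows, from 250 bases before to 50 after a RefSeq start (GRCm38.p6), were matched by symbol for 9034 of the genes tested, and 6 letter patterns were searched on both strands. Some results are not reported here. Alternatives changed the pseudocount, the filter, the scaling, the variance model, the libraries fitted and the definition of switched genes.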

Additional observations from a re-analysis of the deposited data

How the results depend on the processing

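The numbers of genes called, higher and lower stayed within 1.5 times of 5696, 3414 and 2282 under every alternative run, with 5608 to 6459 called for a pseudocount of 0.1, no filter on level, rescaling to TPM, median-ratio size factors, no variance trend and the fit of all 9 libraries, and 3925 with a mean of at least 5 FPKM, which tests fewer genes. Leaving out 1 library gave 4319 to 5851 called. Of the genes with a difference of at least 1, 516 were called with a mean of at least 5 FPKM, 1269 with a pseudocount of 0.1, and 867 to 916 when 1 library was left out. Median-ratio size factors moved the split from 3414 and 2282 to 2763 higher and 2845 lower. The numbers of genes switched on and off rested on their limits, with 18 and 53 when absent meant below 0.1 FPKM, 15 and 63 when present meant at least 2 FPKM, and 40 to 55 and 105 to 117 when 1 library was left out. Of 33 lists with a median of at least 0.3 in size, 0 changed sign under any alternative. Their sizes did change. With no filter on level, which adds members near 0, the median went from -3.29 to -0.72 for cytochrome P450 genes, -1.58 to -0.19 for fetal genes, -2.42 to -1.09 for gluconeogenesis, -3.46 to -2.24 for coagulation, -1.98 to -1.17 for complement, 1.41 to 0.50 for squamous genes and 0.34 to 0.05 for matrix enzymes. The squamous median was then below that of cell cycle inhibitors (0.84), amino acid transporters (0.74), YAP targets (0.63) and stress genes (0.56). The alternatives were followed for 162 of the called genes that the text names. Of these 159 kept call and direction under every alternative that tested them, and Cd74, Fosb and Id1 did not. Named genes with a mean under 5 FPKM were not tested in the fit with that filter. Leaving out P0 M2 gained 7 calls among the named genes that were not called, and leaving out P0 M1 gained 4.

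A fit with a replicate block called 5376 genes, 3180 higher and 2196 lower, and 887 with a difference of at least 1. The numbers were not taken as pairs, since the same-number correlations of the deviations were 0.130, 0.094 and 0.072, although every library correlated best with its own number. The 3 libraries a group and the larger spread at P0 limit what small differences could be called, and genes near 0 FPKM are compressed by the pseudocount.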
